A study of Mus musculus with 15 samples.

Results

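The expression of 9 genes of the pluripotency network was followed in mouse embryonic stem (ES) cells with and without Srf, which encodes serum response factor. They were Sox2, Pou5f1, Zfp42, Nr0b1, Tbx3, Fgf4, Dppa3, Gbx2 and Utf1. Each of the 9 genes was read by 1 probe set, so 9 of 12654 probe sets on the array were described, and all 9 were among the 9558 that lay above the floor on at least 2 arrays and were tested. The members are named genes, chosen with earlier results of these data known.

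The study measured total RNA on Affymetrix MGU74A arrays, on which a set of short probes reads each transcript. The labels give no version of the array, and an early version of this design had faulty probe sets that could not be marked here, which bears on every gene since each rests on 1 probe set. The Srf-null line (E100-/-), its rescue line (E100-/- rescue) and the wild-type line (E14wt) were each given fetal bovine serum and sampled at 0, 10, 30, 60 and then 180 min, with 1 array for each line and time, 15 in all. The labels do not say how Srf was restored in the rescue line or whether separate cultures were used. Each genotype is therefore 1 line, its 5 time points stand for its replicates, and p-values measure the spread between these arrays.

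ES cells keep the capacity to form all tissues of the embryo through a small set of transcription factors that activate one another. Pou5f1 (also called Oct4) and Sox2 bind neighbouring sites in many of the genes active in ES cells, among them Fgf4 and Utf1, while the cytokine LIF, in part through STAT3, sustains further factors that include Klf4, Klf5, Tbx3 and Gbx2. Serum response factor binds a different element, the CArG box, found in many serum-induced and actin cytoskeleton genes.

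Promoter sequences are shown because the results turn on members that differed between lines with and without Srf, and the CArG box is the element that SRF binds. Of the 9 genes, 7 had a promoter in the RefSeq table (build GRCm38.p6, 250 bases before to 50 after the start), with 8 windows in all since Pou5f1 has a pair of starts. Tbx3 and Dppa3 had no entry. The windows of Nr0b1, Fgf4 and Gbx2, which were higher in Srf-null than in rescue cells, and of Zfp42, which was not called, are printed 5′ to 3′ with every motif found in capitals.
Nr0b1, chrX:86191525-86191824, plus strand: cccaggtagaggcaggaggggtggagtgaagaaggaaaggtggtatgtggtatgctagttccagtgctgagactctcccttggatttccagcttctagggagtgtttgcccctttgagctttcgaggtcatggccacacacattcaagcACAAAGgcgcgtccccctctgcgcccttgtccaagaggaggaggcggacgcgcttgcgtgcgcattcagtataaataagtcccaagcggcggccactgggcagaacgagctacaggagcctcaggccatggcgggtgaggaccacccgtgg
Fgf4, chr7:144861136-144861435, plus strand: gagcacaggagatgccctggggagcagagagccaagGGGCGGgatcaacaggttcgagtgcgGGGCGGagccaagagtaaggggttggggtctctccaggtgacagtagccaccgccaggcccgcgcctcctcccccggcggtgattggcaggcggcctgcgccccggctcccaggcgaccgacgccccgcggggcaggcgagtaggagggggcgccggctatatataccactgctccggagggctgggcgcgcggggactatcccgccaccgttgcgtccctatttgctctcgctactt
Gbx2, chr1:89931127-89931426, minus strand: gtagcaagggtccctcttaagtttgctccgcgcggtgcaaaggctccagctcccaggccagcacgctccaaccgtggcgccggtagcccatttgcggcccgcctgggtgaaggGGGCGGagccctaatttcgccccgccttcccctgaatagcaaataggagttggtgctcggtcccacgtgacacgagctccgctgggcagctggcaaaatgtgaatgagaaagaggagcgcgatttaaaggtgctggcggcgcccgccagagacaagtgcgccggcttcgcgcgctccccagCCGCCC
Zfp42, chr8:43306960-43307259, minus strand: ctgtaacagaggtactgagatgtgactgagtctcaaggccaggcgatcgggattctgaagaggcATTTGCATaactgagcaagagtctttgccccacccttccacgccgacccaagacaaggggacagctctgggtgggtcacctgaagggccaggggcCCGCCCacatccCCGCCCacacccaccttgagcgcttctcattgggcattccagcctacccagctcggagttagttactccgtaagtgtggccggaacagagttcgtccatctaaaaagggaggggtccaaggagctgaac

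Both strands were searched for the CArG box, the octamer ATGCAAAT bound by POU factors, the SOX core as CATTGT or CTTTGT, the GC box GGGCGG and the STAT site TTCCNGGAA. The CArG box was found in 0 of the 8 windows and in 1.63% of all 32851 promoters of the same length. The STAT site was likewise in 0 of 8 windows, against 1.15% of all. The octamer lay in the Zfp42 window alone, on the minus strand from base -186 to -179 relative to the start, and in 1.74% of all promoters. In the Nr0b1 window the capitals mark CTTTGT on the minus strand from -101 to -96, a motif also present in the Sox2 window and in 18.7% of all promoters. CATTGT was in 1 Pou5f1 window and in 12.6% of all. The GC box was in 6 windows, including those of Fgf4, Gbx2 and Zfp42, and in 35.7% of all. In the Utf1 window 2 of the 4 GC boxes share a base. These matches describe letters in a short window and are not evidence of binding.

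Some arrays stood apart from their line before any member was considered. RNA degradation raises the 3'/5' signal ratio of the beta-actin controls. This ratio reached 2.94 at 0 min and 3.83 at 60 min in Srf-null cells, 4.22 at 0 min in rescue cells and 7.53 at 0 min in wild-type cells, and it was 0.847 to 2.11 elsewhere. Across all tested probe sets, the nearest array was of another line for 4 of the 15: rescue 0 min (Srf-null 180 min, r = 0.939), rescue 10 min (Srf-null 30 min, 0.943), and Srf-null 10 min with wild-type 30 min (0.944 with each other). The arrays least like any other were Srf-null 0 min (0.856) and wild-type 0 min (0.867). The 2% trimmed mean intensity of the arrays ran from 350 on Srf-null 0 min to 1440 on wild-type 60 min. The members' main line comparisons are therefore given over the 15 arrays and again over the 12 arrays of 10 to 180 min. The annotation names 0 probe sets for Srf, so the genotype could not be checked by its own transcript.

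The label "ES cells" was checked against defining markers. The 9 members lay above the floor of 84.98 normalized intensity units on all 15 arrays, apart from Dppa3 at 60 min in Srf-null cells and at 0 min in wild-type cells. A list of 41 further pluripotency regulators and ES markers had 30 with a probe set, of which 26 to 29 were above the floor on each Srf-null array, 27 to 28 on each rescue array and 25 to 29 on each wild-type array. Of 24 differentiation markers with a probe set, 11 to 14, 13 to 16 and 11 to 14 were above it, and Mesp1, Gsc, Hand1, Foxa2, Hnf4a and Apoa1 never were. Of 19 fibroblast feeder markers, 8 to 12, 8 to 10 and 8 to 11 were above it, and Col1a2 and Pdgfra never were. The floor is the 40th percentile of the normalized values, so most of all probe sets lie above it on every array by construction. Counts of differentiation and feeder markers above it therefore do not show whether such cells were present. The summed feeder signal was 12279 to 16149 units in Srf-null, 15165 to 16792 in rescue and 11755 to 16472 in wild-type arrays, and its part in the results below was not tested. In bulk RNA, fewer cells that express a gene and less RNA per cell cannot be told apart.

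Sox2 and Pou5f1, the core pair of the network, were among the brightest transcripts on every array and did not separate the lines after quantile normalization. Sox2, an HMG-box factor, gave 18629, 25833, 26393, 22929 and 31894 normalized units in Srf-null cells at 0, 10, 30, 60 and 180 min, 21610, 23866, 20934, 27644 and 24382 in rescue cells and 18397, 30080, 18314, 31894 and 19560 in wild-type cells. It ranked between 9 and 91 from the top among the 12654 probe sets. All 3 lines overlapped. Its log2 difference was 0.09 ± 0.14 between Srf-null cells and both other lines over 15 arrays (SE, 5 arrays per line; 95% interval -0.22 to 0.40) and 0.14 ± 0.17 over 12 arrays (-0.25 to 0.52).

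The highest Sox2 values followed array brightness. The 4 arrays with the highest Sox2 signal were the 4 with the highest trimmed mean, and the correlation of log2 Sox2 with the log2 trimmed mean was 0.84 over the 15 arrays, after quantile normalization. For Pou5f1 it was 0.69, and for the other 7 members it lay between -0.18 and 0.35. As deposited, Sox2 ran only from 16777 to 27925 units, while the trimmed mean ran from 350 to 1440. Whether the bright end of the scale hid a difference was not tested. The swings of Sox2 and Pou5f1 between neighbouring times moved with array brightness, and its part in them was not tested.

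Pou5f1, the POU-domain factor without which the inner cell mass is not maintained, gave 16317, 24499, 27191, 18397 and 27191 units in Srf-null cells in order of time, 15588, 24227, 18911, 26003 and 13035 in rescue cells and 12562, 26738, 17074, 23991 and 13260 in wild-type cells. At 180 min the Srf-null array was above both others, by 1.06 against rescue and 1.04 against wild-type on the log2 scale, but at 60 min it was below both (-0.50 and -0.38). Over 15 arrays the difference from both lines was 0.27 ± 0.17 (95% interval -0.10 to 0.65, adjusted p = 0.61 in limma's test). Scaled to a common trimmed mean instead, Pou5f1 ran from 19442 to 28176 in Srf-null, 14082 to 19171 in rescue and 12836 to 25570 in wild-type cells. Srf-null and rescue arrays thus did not overlap under that scaling. The share of all probe sets with this was not counted.

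Zfp42 (Rex1), a zinc-finger protein used as a marker of undifferentiated ES cells, lay between 12110 and 18314 in Srf-null cells, 10667 and 13924 in rescue cells and 5057 and 17155 in wild-type cells. The low wild-type value was the 0 min array, and the other 4 wild-type arrays were between 13260 and 17155. The difference from both lines was 0.23 ± 0.20 over 15 arrays and 0.08 ± 0.13 over 12. Under the common trimmed mean its Srf-null arrays (14446 to 17121) also lay above its rescue arrays (10478 to 14003). They did not lie above all wild-type arrays (5075 to 20240). How many of all probe sets separated Srf-null from rescue arrays under that scaling was not counted. Utf1 is a chromatin-bound factor of undifferentiated cells. Its medians were 12179 in Srf-null, 11001 in rescue and 11700 in wild-type cells. The difference of Srf-null cells from both lines was 0.11 ± 0.12 over 15 arrays (95% interval -0.15 to 0.36) and 0.05 ± 0.11 over 12 (-0.20 to 0.30). Against both lines over 12 arrays, the intervals of these 4 genes leave room for differences of up to 0.78, the upper bound for Pou5f1.

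**Figure D1:**
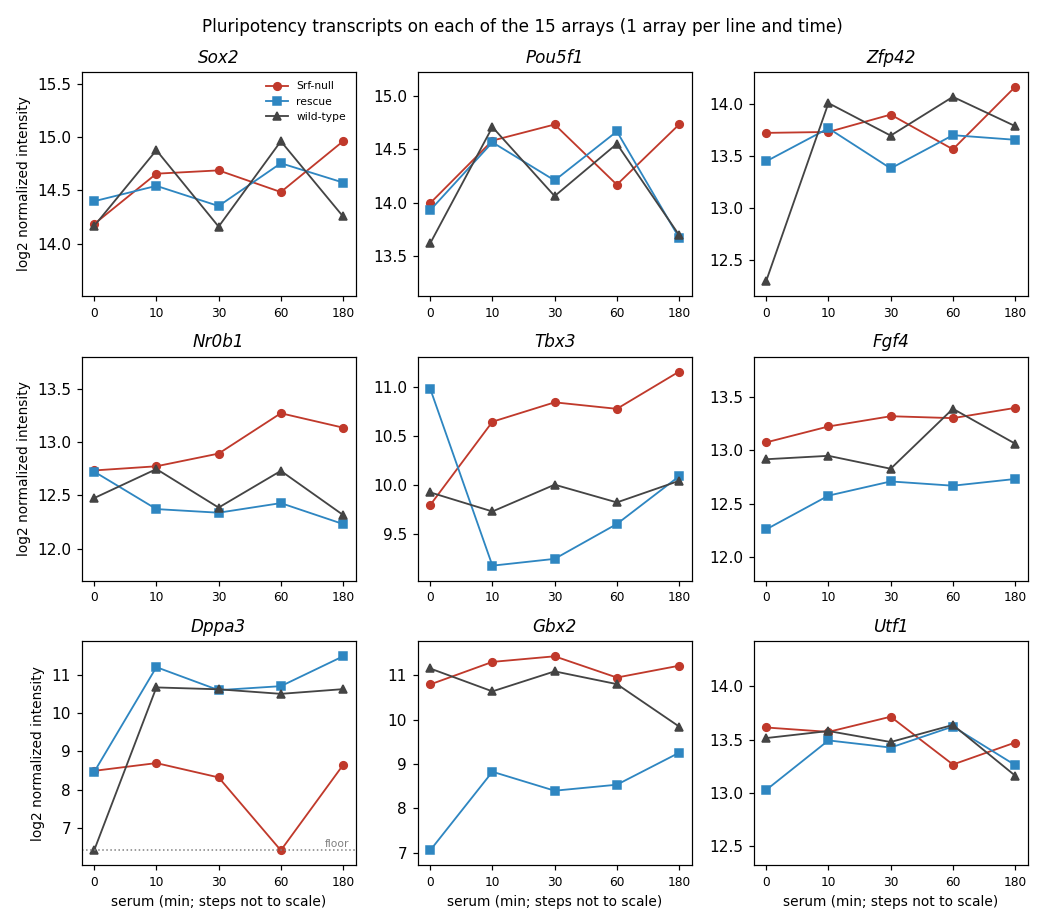
Log2 normalized intensity (y axis; floor at log2 6.41) of the 9 genes on each array against time in serum (x axis, steps not to scale), with Srf-null as circles, rescue as squares and wild-type as triangles, 1 array per point. From 10 min on, Srf-null points lie above both other lines for Tbx3 and Nr0b1 and below both for Dppa3, while rescue points lie below both other lines for Gbx2 and Fgf4. The share of all probe sets with such a rescue pattern was not counted.

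Srf-null cells were next compared with both other lines, that is with the mean of rescue and wild-type cells. Over the 12 arrays from 10 min on, Tbx3, Nr0b1 and Gbx2 were called higher and Dppa3 lower than that mean. A call needed an adjusted p under 0.05 over all probe sets and the same direction, not a call, against each line singly. Against wild-type cells alone, Dppa3 was the 1 member of these 4 that was called, and Gbx2 overlapped between Srf-null and wild-type arrays. These 4 of 9 members compare with 1.16% of all tested probe sets, and by direction with 0.502% called higher (3 members) and 0.659% called lower (1 member). With all 15 arrays, 0 of 9 were called, against 0.136% of all probe sets, although 5 members had an unadjusted p under 0.05, as did 1001 of the 9558 probe sets. The median difference of the members was 0.29 over 12 arrays and 0.27 over 15, against 0.02 and 0.01 for all probe sets. Single arrays set much of it: over 12 arrays it was 0.03 without Srf-null 180 min, 0.18 without Srf-null 30 min and 0.50 without Srf-null 60 min, and over 15 arrays it was 0.18 without Srf-null 180 min and 0.43 without Srf-null 60 min.

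Tbx3, a T-box factor that supports self-renewal downstream of LIF, gave 890, 1600, 1835, 1752 and 2278 units in Srf-null cells at 0, 10, 30, 60 and 180 min, 2019, 581, 610, 779 and 1090 in rescue cells and 973, 851, 1027, 907 and 1055 in wild-type cells. From 10 min on, every Srf-null array was above every rescue and wild-type array. At 0 min the order was turned round, with rescue at 2019 and Srf-null at 890. Tbx3 rose by 1.14 ± 0.13 on the log2 scale over 12 arrays (SE, 4 arrays per line; 2.20-fold, adjusted p = 0.00692) and gave 0.78 ± 0.29 over 15 arrays (adjusted p = 0.38). The call against both lines was lost without Srf-null 30 min (1.11, adjusted p = 0.0564).

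Against the lines singly, Tbx3 was 1.32 ± 0.15 higher than in rescue cells (adjusted p = 0.00475) and 0.95 ± 0.15 higher than in wild-type cells, where it missed the threshold (adjusted p = 0.0558, 12 arrays). Over 15 arrays these differences were 0.82 ± 0.33 and 0.74 ± 0.33 (adjusted p = 0.455 and 0.516). Without rescue 0 min alone, the 14 other arrays gave 1.21 against rescue (adjusted p = 0.0367). Rescue and wild-type cells differed by -0.37 ± 0.15 (95% interval -0.72 to -0.02, adjusted p = 0.477), so the order was Srf-null, wild-type, rescue, with the last pair not separated by the test.

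Nr0b1 (Dax1), an orphan nuclear receptor that binds Pou5f1 protein in ES cells, gave 6812, 7000, 7603, 9876 and 8993 units in Srf-null cells, 6761, 5302, 5176, 5511 and 4812 in rescue cells and 5691, 6876, 5353, 6792 and 5102 in wild-type cells. Srf-null was the highest line at 5 of 5 times, by 0.03 to 0.82 against wild-type and 0.01 to 0.90 against rescue. It rose by 0.57 ± 0.11 over 12 arrays (1.49-fold, adjusted p = 0.0469) and gave 0.49 ± 0.12 over 15 (adjusted p = 0.189). The call was close to the threshold. It was lost without any one of the 3 Srf-null, 4 rescue or 3 wild-type arrays named next, with differences of 0.48 to 0.60 and adjusted p from 0.0761 to 0.175. These were Srf-null 30, 60 and 180 min, all rescue arrays, and wild-type 30, 60 and 180 min. Against rescue cells alone it rose by 0.67 ± 0.12 over 12 arrays (adjusted p = 0.032), a call lost without any one of 9 arrays (0.58 to 0.72, adjusted p from 0.0566 to 0.13), namely Srf-null 30, 60 and 180 min, wild-type 30 and 60 min and all rescue arrays. The difference of rescue from wild-type cells missed the threshold (-0.20 ± 0.12, 95% interval -0.48 to 0.08).

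Tbx3 and Nr0b1 were the 2 members whose Srf-null arrays were all above both other lines over 12 arrays, as in 1.12% of all probe sets, and Dppa3 was the 1 member whose arrays were all below, as in 1.18%. Over 15 arrays no member was separated from both lines, beside 0.0942% of all probe sets above both and 0.126% below both.

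Dppa3 (Stella), a maternal-effect protein of early embryos, germ cells and a fraction of ES cells, had the largest difference from both lines among the 9 genes. It gave 360, 414, 319, -76 and 400 units in Srf-null cells, 352, 2363, 1557, 1673 and 2876 in rescue cells and 28, 1635, 1580, 1455 and 1585 in wild-type cells. From 10 min on, all Srf-null arrays were below all arrays of the other lines. At 0 min the rescue array was level with Srf-null and the wild-type array lay under the floor. Dppa3 fell by 2.79 ± 0.32 on the log2 scale over 12 arrays (adjusted p = 0.00688), 6.91-fold lower, with Srf-null 60 min counted at the floor. Without that array the difference was -2.32, still called. Over 15 arrays it was -2.02 ± 0.55 (adjusted p = 0.23), and without Srf-null 0 min it was -2.79 and called (adjusted p = 0.0107). In that fit the other 0 min arrays carry no weight in this difference, so it repeats the 12-array value and is no separate result.

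Dppa3 was lower than in rescue cells (-2.99 ± 0.37, adjusted p = 0.00624) and lower than in wild-type cells (-2.59 ± 0.37, adjusted p = 0.038) over 12 arrays. Leaving out any one of 10 arrays ended the call against wild-type, with differences from -2.77 to -2.31 and adjusted p from 0.0704 to 0.156. These were all rescue and wild-type arrays and Srf-null 30 and 180 min. Rescue and wild-type cells differed by 0.39 ± 0.37 (95% interval -0.45 to 1.23). The beta-actin ratio was highest on wild-type 0 min, where Dppa3 and Zfp42 were also lowest in their line, and stood at 3.83 for Srf-null cells at 60 min, where Dppa3 was lowest. The Gapdh ratio was 1.51 on wild-type 0 min but 0.785 on Srf-null 60 min. The part of RNA quality was not tested.

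Gbx2 and Fgf4 were set apart mainly by low values in the rescue line. Gbx2, a homeobox factor induced by LIF and STAT3 in ES cells, gave 1772, 2517, 2748, 1972 and 2372 units in Srf-null cells, 133, 454, 338, 371 and 611 in rescue cells and 2273, 1591, 2173, 1780 and 919 in wild-type cells. All Srf-null and all wild-type arrays were above all rescue arrays, while Srf-null and wild-type arrays overlapped. How many of all probe sets had a rescue line so set apart was not counted. Gbx2 was 2.72 ± 0.37 higher in Srf-null than in rescue cells over 15 arrays (6.59-fold, adjusted p = 0.00847) and 2.47 ± 0.30 higher over 12 arrays (adjusted p = 0.00616). The 15-array call was lost without Srf-null 30 min (2.69, adjusted p = 0.0571), Srf-null 60 min (2.79, adjusted p = 0.0581) or rescue 60 min (2.76, adjusted p = 0.0605).

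Against wild-type cells Gbx2 gave 0.63 ± 0.30 over 12 arrays (adjusted p = 0.441) and 0.43 ± 0.37 over 15. Its call against both lines (1.55 ± 0.26, adjusted p = 0.0316, 12 arrays) therefore rested on the rescue line for most of its size. That call was also lost without any one of Srf-null 10, 30, 60 or 180 min, rescue 10, 30 or 60 min, or wild-type 10, 30 or 60 min, with differences of 1.43 to 1.64 and adjusted p from 0.0511 to 0.153. Over 15 arrays it was called without wild-type 0 min (1.74, adjusted p = 0.0346) or without rescue 0 min (1.40, adjusted p = 0.0439).

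Fgf4, the growth factor through which ES cells activate ERK and become ready to differentiate, gave 8616, 9553, 10213, 10088 and 10777 units in Srf-null cells, 4899, 6097, 6685, 6501 and 6792 in rescue cells and 7721, 7899, 7263, 10721 and 8548 in wild-type cells. Rescue arrays were below all arrays of both other lines, a pattern whose share over all probe sets was not counted. Fgf4 was 0.67 ± 0.11 higher in Srf-null than in rescue cells over 15 arrays (1.60-fold, adjusted p = 0.035) and 0.64 ± 0.11 higher over 12 (adjusted p = 0.0216). Its difference from both lines over 12 arrays, 0.45 ± 0.09, was not called over all probe sets (adjusted p = 0.0633; without wild-type 60 min it was, at 0.50 and adjusted p = 0.033), nor was that from wild-type cells (0.25 ± 0.11, adjusted p = 0.395). The 15-array call against rescue was lost without any one of 9 arrays, with differences of 0.64 to 0.72 and adjusted p from 0.072 to 0.19. These were wild-type 10 min and all Srf-null and rescue arrays from 10 min on. The 12-array call was lost without Srf-null 10, 30 or 180 min or any rescue array (0.59 to 0.69, adjusted p from 0.0596 to 0.102).

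Counted by pair of lines, Srf-null against rescue cells gave 2 called members over 15 arrays (0.22% of all probe sets) and 5 over 12 arrays (2.25% of all). Of the 5, Gbx2, Tbx3, Nr0b1 and Fgf4 were higher (1.08% of all probe sets) and Dppa3 was lower (1.17%). Srf-null against wild-type cells gave 0 called members over 15 arrays (0% of all, with 3 members and 916 of 9558 probe sets at an unadjusted p under 0.05) and 1 over 12, Dppa3 (0.324% of all). Rescue against wild-type cells gave 0 over 15 arrays in limma's test (0% of all, with 2 members and 693 probe sets at an unadjusted p under 0.05) and 0 over 12 arrays (0.398% of all, with 3 members and 941 probe sets at an unadjusted p under 0.05). Gbx2 came nearest in that pair, at -2.29 ± 0.37 over 15 arrays (adjusted p = 0.0735) and -1.84 ± 0.30 over 12 (adjusted p = 0.0528). It passed without wild-type 180 min over 15 arrays (-2.62, adjusted p = 0.0416) and over 12 (-2.17, adjusted p = 0.0325). It also passed without rescue 0 min over 15 (-1.94, adjusted p = 0.0351) and without rescue 180 min over 12 (-2.13, adjusted p = 0.0478). These comparisons share arrays of the same lines.

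**Figure D2:**
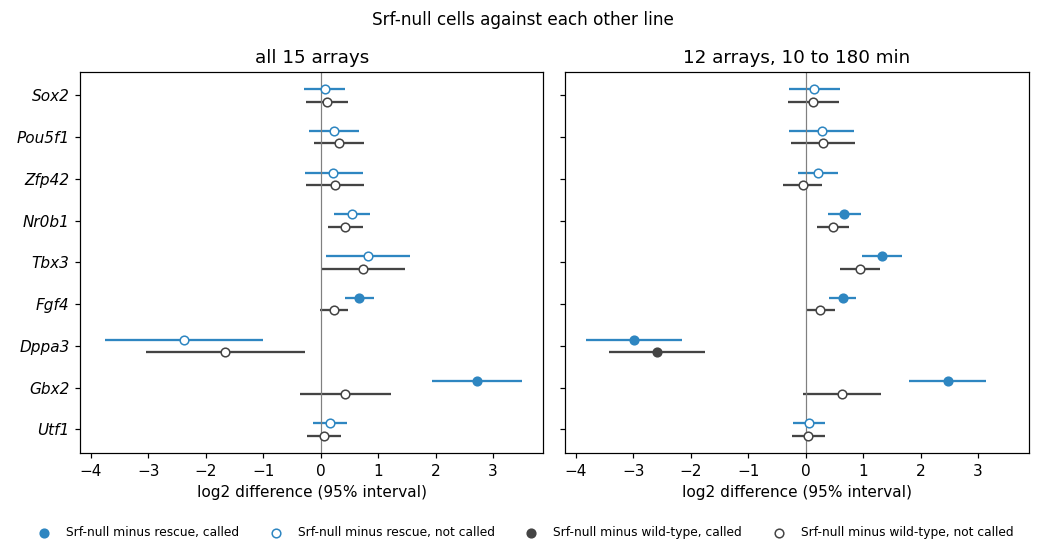
Log2 differences (x axis, points) with 95% intervals (lines) of Srf-null cells against rescue (blue) and against wild-type cells (dark), over all 15 arrays (left) and over the 12 arrays of 10 to 180 min (right); filled points passed an adjusted p under 0.05. Sox2, Pou5f1, Zfp42 and Utf1 sit around 0 in both panels, and Gbx2 lies at 2.47 against rescue but at 0.63 against wild-type on the right.

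The line differences were set beside a split of the arrays by their share of non-positive values. Non-positive values made up 37.1% to 41.6% of Srf-null 30, 60 and 180 min and of rescue 0 and 10 min, and 24.9% to 30.9% of the other arrays. With that share as a further term, 0 members and 4 of all 9558 probe sets were called against both lines over 12 arrays. Without it these were 4 members and 111 probe sets. Tbx3 then gave 1.21 (adjusted p = 0.109), Gbx2 1.61 (adjusted p = 0.266), Nr0b1 0.47 (adjusted p = 0.429) and Dppa3 -2.43 (adjusted p = 0.167), each with its sign kept. Between single arrays on 1 side of the split, Srf-null against wild-type at 10 min, the differences were 0.91 for Tbx3, 0.66 for Gbx2, 0.27 for Fgf4, 0.03 for Nr0b1 and -1.98 for Dppa3. On the other side, the mean of Srf-null 30, 60 and 180 min against rescue 10 min gave 1.74 for Tbx3, 2.37 for Gbx2, 0.76 for Fgf4, 0.73 for Nr0b1 and -3.42 for Dppa3. The 0 min arrays gave other values within the same sides. Srf-null against wild-type at 0 min gave -0.13 for Tbx3, -0.36 for Gbx2, 0.16 for Fgf4, 0.26 for Nr0b1 and 2.08 for Dppa3, with the wild-type array at the floor. The mean of Srf-null 30, 60 and 180 min against rescue 0 min gave -0.06 for Tbx3, 4.14 for Gbx2, 1.08 for Fgf4, 0.38 for Nr0b1 and -0.67 for Dppa3. Within the low side, the mean of Srf-null 0 and 10 min against that of rescue 30, 60 and 180 min gave 0.57 for Tbx3, 2.31 for Gbx2, 0.45 for Fgf4, 0.42 for Nr0b1 and -2.34 for Dppa3. Within the sides, Gbx2, Fgf4 and Nr0b1 were positive and Dppa3 negative against rescue in all 3 contrasts, while Tbx3 turned sign against rescue 0 min. Nr0b1 and Dppa3 differed less from rescue 0 min than from rescue 10 min. Against wild-type 0 min, Tbx3, Gbx2 and Dppa3 had the opposite sign to that at 10 min, and Fgf4 and Nr0b1 stayed positive. The contrasts against rescue set unlike times against each other and share arrays, so line and time cannot be told apart in them. The part of the split in the line differences was not tested.

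Members also differed in how they varied together over the 15 arrays, which share lines and array brightness. The highest correlations of log2 values between members were 0.86 for Fgf4 and Gbx2 and 0.79 for Sox2 and Pou5f1, followed by 0.70 for Nr0b1 and Tbx3. Dppa3 ran against Nr0b1 (-0.66) and Tbx3 (-0.58). Among 6065 probe sets of other genes above the floor on at least 10 arrays, the pattern most like Gbx2 was that of Tfcp2l1 (r = 0.881), a transcription factor of the same self-renewal network, followed by the connexin gene Gjb5 (0.86). Tfcp2l1 was also the second most alike for Fgf4 (0.796), after the homeobox gene Nkx6-2 (0.827). Its range was 7118 to 8789 units in Srf-null, 4083 to 6761 in rescue and 7263 to 8866 in wild-type cells.

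Most like Dppa3 were the fatty acid-binding protein gene Fabp3 (r = 0.954) and the mitochondrial ADP/ATP carrier gene Slc25a4 (0.95). Slc25a4 had a median of 5362 units in Srf-null, 10640 in rescue and 10071 in wild-type cells. Most like Tbx3 were the focal adhesion gene Fermt2 (0.887) and Lmo4 (0.866), and most like Nr0b1 were Dapk3 (0.882) and Srcap (0.862). Sox2 was most like Morf4l2 and Vapa (both 0.898), and Pou5f1 like Nono (0.926) and Aifm1 (0.907). Zfp42 was most like Dido1 (0.944) and Eif4a1 (0.931), and Utf1 like Tsc2 (0.902) and Ehmt2 (0.877). The lowest wild-type values of Zfp42, Dido1 and Eif4a1 were 5057, -3 and -18 units, beside wild-type medians of 14129, 2202 and 1949. How far their correlations rest on such low values was not tested.

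Further genes of the network were read from lists with 1 probe set per gene. In the LIF and STAT3 pathway, 1 of 11 tested genes was called higher and 0 lower in Srf-null cells against the mean of both lines over 12 arrays, with a median of 0.17. It was Klf5, a Krüppel-like factor that sustains ES cells, at 0.71 ± 0.12 (adjusted p = 0.0326). Its geometric mean was 14548 units in Srf-null, 6457 in rescue and 12226 in wild-type cells over 12 arrays. Klf5, like Gbx2, was lowest in rescue cells, 1.17 ± 0.14 higher in Srf-null than in rescue cells (adjusted p = 0.00526) and lower in rescue cells than in wild-type (-0.92 ± 0.14, adjusted p = 0.0361). On rescue 0 min, however, Klf5 gave 13924 units, and over 15 arrays both calls were lost (0.98 ± 0.18, adjusted p = 0.0513, and -0.73 ± 0.18, adjusted p = 0.298). Against wild-type cells alone Klf5 gave 0.25 ± 0.14 over 12 arrays (adjusted p = 0.498).

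Klf4, a second Krüppel-like factor of this pathway, rose against rescue cells over 12 arrays (0.73 ± 0.12, adjusted p = 0.0225), missed the threshold over 15 (0.60 ± 0.17, adjusted p = 0.224), and over 12 gave 0.44 ± 0.11 against both lines (adjusted p = 0.101). The LIF receptor gene Lifr gave 0.45 ± 0.12 (adjusted p = 0.136) and Myc 1.07 ± 0.32 (adjusted p = 0.171). Over all 15 arrays 0 of the 11 were called against both lines, with Klf5 at 0.61 ± 0.15 (adjusted p = 0.189), Klf4 at 0.42 ± 0.15, Lifr at 0.38 ± 0.25 and Myc at 0.97 ± 0.36.

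Of 29 tested further pluripotency regulators and ES markers, 0 were called against both lines over either set of arrays. The median was 0.13 over 12 arrays, and 18 of 29 were positive. The 4 with the smallest p were Mycn (-0.47 ± 0.11), the growth factor gene Nodal (0.46 ± 0.14), the AKT co-activator gene Tcl1 (0.33 ± 0.09) and Trap1a (0.24 ± 0.07), with adjusted p from 0.0947 to 0.182. Over 15 arrays Mycn turned sign, to 0.28 ± 0.49, and at 0 min it gave 2130 units in Srf-null, 552 in rescue and -104 in wild-type cells. Nodal (0.34 ± 0.16), Tcl1 (0.24 ± 0.12) and Trap1a (0.13 ± 0.10) kept their sign over 15 arrays. Against rescue cells alone, over 12 arrays, Tfcp2l1 rose (0.40 ± 0.08, adjusted p = 0.0434) and Mycn fell (-0.84 ± 0.13, adjusted p = 0.0172; -0.28 ± 0.56 over 15 arrays).

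In the FGF and ERK pathway, 0 of 10 tested genes were called against both lines, with a median of -0.08 over 12 arrays. The receptor genes Fgfr1 (-0.72 ± 0.25) and Fgfr2 (-0.57 ± 0.23) and the kinase gene Map2k1 (0.40 ± 0.11) had adjusted p from 0.136 to 0.322, and Map2k2 gave 0.46 ± 0.22 (adjusted p = 0.38). Over 15 arrays these were -0.37 ± 0.30, -0.50 ± 0.23, 0.28 ± 0.15 and 0.42 ± 0.20. Fgf5, which marks the primed state that follows naive pluripotency, was never above the floor. Of 18 tested differentiation markers 0 were called against both lines over 12 arrays (median -0.10, 7 of 18 positive). Those with the smallest p lay on both sides of 0. Col4a1, a basement membrane collagen gene, gave -0.63 ± 0.17 and Pax6, a neural factor, -0.38 ± 0.30, while the laminin gene Lama1 gave 0.64 ± 0.33 and the neural factor Sox1 1.22 ± 0.57 (adjusted p from 0.138 to 0.602). Over 15 arrays they gave -0.71 ± 0.23, -0.68 ± 0.35, 0.77 ± 0.28 and 0.72 ± 0.60. Sox1 lay near or under the floor on many arrays. From 10 min on it ran from -524 to 1039 units in Srf-null, -445 to -42 in rescue and -483 to 274 in wild-type cells. Against rescue cells alone Col4a1 was lower over 12 arrays (-1.14 ± 0.20, adjusted p = 0.0267) and gave -1.06 ± 0.27 over 15 (adjusted p = 0.16). Of 15 tested feeder markers 0 were called (median -0.05, 6 of 15 positive). The 4 with the smallest p were Prrx1 (0.90 ± 0.27), S100a4 (1.58 ± 0.51), the collagen gene Col3a1 (-0.55 ± 0.30) and Thy1 (0.49 ± 0.30), with adjusted p from 0.172 to 0.505. Over 15 arrays they gave 0.68 ± 0.27, 1.12 ± 0.53, -0.29 ± 0.31 and -0.08 ± 0.56. From 10 min on, Thy1 was under the floor on every rescue array (-279 to 69 units) and every wild-type array (-303 to -176). Prrx1, S100a4 and Col3a1 also fell under it on some arrays. The remaining tested feeder markers, also not called, lay on both sides of 0 over 12 arrays. Below 0 were Lum (-0.51 ± 0.36), Col6a1 (-0.49 ± 0.36), Lox (-0.39 ± 0.50), Col1a1 (-0.36 ± 0.29), Twist1 (-0.32 ± 0.26) and Mmp2 (-0.16 ± 0.18), with Fn1 (-0.05 ± 0.14) and Postn (-0.04 ± 0.08). Above 0 were Timp1 (0.06 ± 0.11), Col5a2 (0.07 ± 0.08) and Dcn (0.13 ± 0.43).

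**Figure D3:**
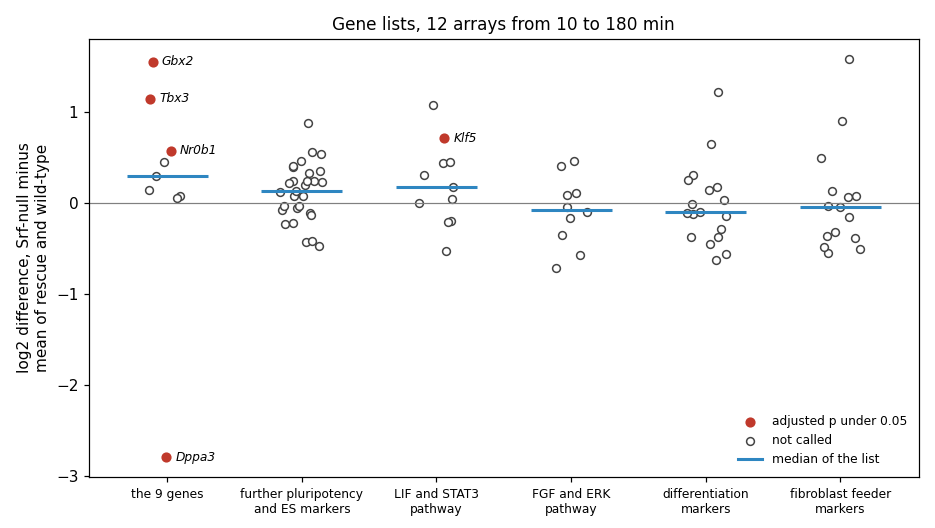
Log2 difference of Srf-null cells from the mean of rescue and wild-type cells over the 12 arrays of 10 to 180 min (y axis), with 1 point per tested gene, grouped by list (x axis; sideways scatter is only for legibility). Filled points passed an adjusted p under 0.05 in the test over all probe sets, and bars are list medians. Of the 5 other lists only LIF and STAT3 holds a called gene, Klf5 at 0.71.

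No member passed the test for a change in serum. The question was whether any of them changed between the first arrays (0 and 10 min) and the early (30 and 60 min) or late (180 min) arrays, averaged over the lines. In limma's test 0 of 9 were called early (0% of all probe sets, of which 243 had an unadjusted p under 0.05 and 0 of those were members) and 0 of 9 late (0.0523% of all, with 387 at an unadjusted p under 0.05 and 0 members). Early changes ran from 0.01 ± 0.31 for Tbx3 to 0.54 ± 0.76 for Dppa3, and late changes from -0.20 ± 0.29 for Pou5f1 to 1.27 ± 0.93 for Dppa3. The narrowest early intervals were -0.25 to 0.32 for Nr0b1, -0.23 to 0.35 for Utf1 and -0.08 to 0.48 for Fgf4. For Dppa3 the early interval, -1.18 to 2.26, was too wide to bound a change, and it includes the low 0 min arrays.

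The serum response of Srf-null cells was also compared with that of the other lines by an interaction term. No member was called for the early response (0 of 9, against 0.0209% of all probe sets) or the late response (0 of 9, against 0.0105%). At an unadjusted p under 0.05 there were 0 members in each, and 823 and 742 of all probe sets. Nr0b1 had the largest late difference relative to its error, 0.69 ± 0.33 (adjusted p = 0.661). Within Srf-null cells Tbx3 stood at 890 units at 0 min and 2278 at 180 min, but its interaction was 0.82 ± 0.81 late (adjusted p = 0.862).

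**Figure D4:**
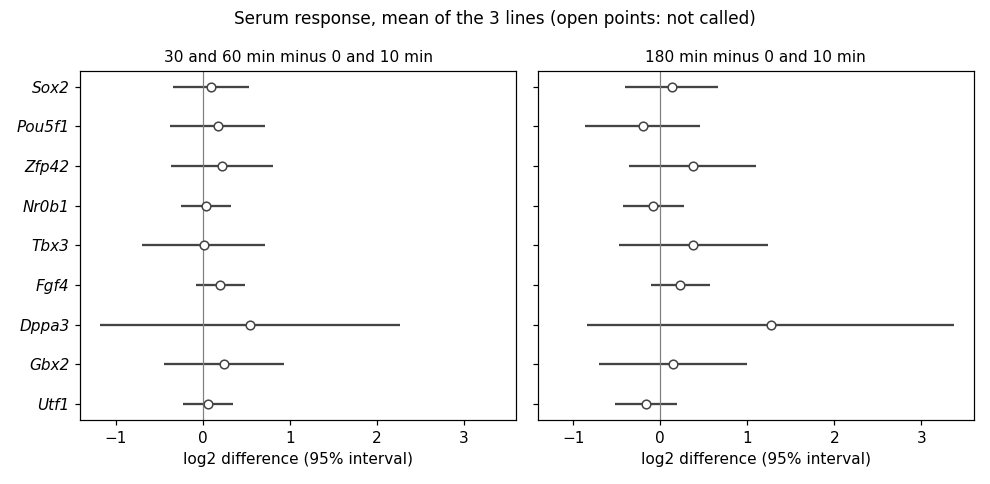
Log2 change in serum (x axis, points) with 95% intervals (lines) for the 9 genes, averaged over the 3 lines, at 30 and 60 min (left) and at 180 min (right) relative to 0 and 10 min. All points are open because none passed an adjusted p under 0.05, and all intervals include 0.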

How the data were processed

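The deposited table holds 1 intensity value per probe set and array on a linear scale. How the authors computed, background-corrected and scaled them is not given in the sources used here. Some values are negative. The 2% trimmed means differed 4.1-fold between arrays, so intensities were quantile-normalized. Before taking log2, lower values were raised to a floor at the 40th percentile (84.98, log2 6.41). The 9558 probe sets that exceeded it on 2 or more arrays were tested with R 4.3.3 and limma 3.58.1 (lmFit, then eBayes with trend), with Benjamini-Hochberg adjustment. The line model held line and time (8 residual degrees of freedom over 15 arrays and 6 over 12), so time was the block shared by the lines. The serum model held a mean for each line and phase (6 residual degrees of freedom). Intervals are 95% and use limma's moderated error. Code was tested on simulated data.

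Gene names come from the array's annotation table, and old symbols were replaced through the gene identifier. Only those with 1 symbol were used, 10298 in all, against 363 with several and 1993 not listed. All members were named, with the 2 most alike probe sets of each by Pearson correlation, and for each list the called genes and the 4 with the smallest p against both lines over 12 arrays. Genes called in other pairs of lines, and the remaining feeder markers, were named after their values were seen. A list's gene was read by its brightest probe set. The members, lists and models were chosen with earlier results of these data known. Of the table's columns, 0 were left without a sample. The number of arrays limits the precision.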

Additional observations from a re-analysis of the deposited data

Results flagged for a closer look

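With each of the 9 genes tested in each of the 3 lines, 27 groups of 5 arrays were searched for an array far from the rest of its line, and 3 were found. Chance alone flags about 1 in 20 such groups. Dppa3 on Srf-null 60 min (-76 units, against 319 to 414 on the other Srf-null arrays) had a gap of 0.836 of the group's log2 range. Dppa3 on wild-type 0 min (28 units, against 1455 to 1635) had a gap of 0.961 of the range. Zfp42 on wild-type 0 min (5057 units, against 13260 to 17155) had a gap of 0.789 of the range. The beta-actin 3' to 5' ratio was 3.83 on the first of these arrays and 7.53 on the wild-type 0 min array. The Gapdh ratio was 0.785 on the first and 1.51 on wild-type 0 min. The part of RNA quality in these values was not tested.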

How the results depend on the processing

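The numbers of called members changed with the arrays and the settings, but no called difference changed sign in any alternative. Over 15 arrays, leaving out 1 array gave 0 to 1 called members against both lines (3 to 66 of all probe sets) and 0 against wild-type (0 to 20). It gave 0 to 4 against rescue (4 to 103) and 0 to 1 for rescue against wild-type (0 to 20). Over 12 arrays the member ranges were, in the same order, 1 to 3 (30 to 147 of all probe sets), 0 to 1, 3 to 5 and 0 to 1. In the main setting 31 of all probe sets were called against wild-type, 215 against rescue and 38 for rescue against wild-type. How these numbers moved with each array left out is not given here, so the member ranges of these pairs are not results about the members. Without wild-type 0 min and rescue 0 min, chosen after seeing the data, the 15-array counts became 4 against both lines, 1 against wild-type and 5 against rescue (119, 31 and 211 of all probe sets). In that fit Srf-null 0 min is the only array of its time and carries no weight in a line difference.

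For Srf-null against rescue over 15 arrays the count was 1 (2 in the main setting) under scaling to a common trimmed mean, scaling to a common median, no intensity trend, and the share of values at or below 0 as a term. In that order 15, 10, 24 and 10 of all probe sets were called (21 in the main setting). Fgf4 lost its call in each (adjusted p = 0.0569, 0.45, 0.123 and 0.105), while Gbx2 kept its own. For rescue against wild-type the count was 1, Gbx2, with the floor at the 50th percentile and with no replicate block, that is without time in the model (0 in the main setting). Over 15 arrays 4 and 3 of all probe sets were called in these settings (0 in the main setting). Over 12 arrays the count was also 1, Gbx2, with at least 5 arrays above the floor (0 members and 38 of all probe sets in the main setting). Against both lines over 12 arrays the count of 4 (111 of all probe sets) became 1 with a common median (59 of all). It became 2 with no filter on dim probe sets (88) and 0 with the share term (4). Nr0b1 lost its call with a common trimmed mean (adjusted p = 0.0535), a floor at the 35th percentile (0.0519), no filter (0.0827), no trend (0.0968) and a common median (0.266). With the trimmed mean the count stayed at 4 because Fgf4 was called (adjusted p = 0.0288). Tbx3 lost its call with the common median (adjusted p = 0.151). Against wild-type over 12 arrays the count of 1 (31 of all probe sets) became 2 with a common trimmed mean (Tbx3 was added). It became 0 with a floor at the 35th percentile (chosen after seeing the data), no filter, no trend or the share term. Against rescue over 12 arrays the count of 5 (215 of all) became 2 with a common median, 3 with no trend and 1 with the share term. The numbers of all probe sets called in these alternatives against wild-type and against rescue are not given here. A loss of member calls is therefore not told apart from a general loss of calls. The common median moved the median of all probe sets to -0.27 against both lines over 12 arrays, where Sox2, Zfp42 and Utf1 gave -0.13, -0.15 and -0.13. The common trimmed mean moved the members up, with Sox2 at 0.37, Pou5f1 at 0.53, Zfp42 at 0.39 and Utf1 at 0.27 over 15 arrays (0.09, 0.27, 0.23 and 0.11 in the main setting), beside an all-probe-set median of 0.02. Time pairs the lines by label, and without that block Fgf4 was called against both lines over 12 arrays (adjusted p = 0.0378), while the number against both lines stayed within 1.5 times. The serum counts were 0 in all alternatives run. A floor at the 30th percentile lies at -10.85 and has no log, and the serum model without a 180 min array has an empty cell, so neither was run. The causes were not tested.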
